A study of Mus musculus with 8 samples.

Results

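CX22 embryos were compared with 2C embryos over 4 of the 8 libraries of the series, CX22 replicates 1 and 2 against 2C replicates 1 and 2. The libraries were chosen by their labels alone, and all genes were described: of 24789 genes in the table, 14538 stood above 0 in at least 1 of the 4 libraries. Total RNA of C57BL/6 mouse embryos was used, and each library was made by Smart-seq, a method that reverse transcribes whole messages and amplifies the cDNA so that very little RNA is needed. 2C was read as the 2-cell stage. The labels do not spell out CX22, list no treatment, dose, time or genotype for it, and name no group as its control. The remaining groups, 8C (read as the 8-cell stage) and CX45, also had 2 libraries each, and the series title concerns RNA polymerase I transcription and chromatin architecture in embryos. Nothing in the labels says how many embryos went into a library or whether replicates came from separate embryos, so the spread that the p-values rest on may be technical.

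RNA polymerase I transcribes the ribosomal RNA precursor in the nucleolus, and many assembly factors and ribosomal proteins turn that precursor into ribosomes. In the mouse the zygotic genome becomes broadly active at the 2-cell stage, when a transient burst of genes such as the Zscan4 cluster is transcribed while RNA stored in the oocyte is cleared. Ribosome production and most housekeeping transcription then climb towards the 8-cell stage and beyond. The comparison sets the early embryonic transcriptome of 2C against CX22, a label of unstated meaning. Values of 8C are given beside some genes as a reference for later development. Comparisons of CX22 and of 8C with 2C share the 2C libraries, so such values are only placed side by side.

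The libraries were of similar size and differed in how well replicates matched. Levels are in FPKM, fragments per kilobase of transcript scaled to the fragments mapped in the library. The steps between low values implied 12.01 and 12.83 M fragments (M, 1e6) in 2C and 9.74 and 12.09 in CX22, and 3 fragments of a 2 kb transcript equalled 0.117 to 0.154 FPKM, which allows for counting error and nothing else. Replicates correlated at 0.996 in 2C and 0.871 in CX22 across genes, which are not independent replicates. Among genes at 10 FPKM or more in either replicate, 9 of 4203 (0.2%) differed by at least 1 on the log2 scale between the 2C libraries, against 1957 of 4942 (39.6%) between the CX22 libraries. For the median gene the difference between the 2C libraries was near sampling noise, and the pair was counted as 1 sample, so 2C values carry no SD. Markers of oocytes and early embryos were present throughout, 8 of 8 at 1 FPKM or more in all 4 libraries. Of 11 cumulus and granulosa cell markers, 5 (Ptx3, Cyp11a1, Amh, Fshr and Inha) were listed at 0 in all 4, and the summed level of the list ran from 7.99 to 8.16 FPKM in 2C and from 5.22 to 8.24 in CX22. The 7 sperm markers summed to 18.7 to 19.6 FPKM in 2C and 33.1 to 42.9 in CX22, with Tnp2 and Smcp listed at 0 in all 4. In CX22 replicate 1 that sum was nearly all Tnp1 (42.2 FPKM, and 0 in the other 3 libraries), and in replicate 2 mostly Prm2 (28.7 FPKM, against 0.655 in replicate 1 and 17.1 and 16.7 in 2C). The 6 blood markers summed to 109 FPKM in both 2C libraries and to 33.7 and 91.0 in the CX22 libraries, with Alas2 listed at 0 in all 4. That sum was mostly Hba-a1, at 106 and 104 FPKM in 2C and 23.6 and 71.2 FPKM in CX22. Lyz2 went the other way, from 0 and 1.91 FPKM in 2C to 10.2 and 11.8 FPKM in CX22. The part of these differences in the results below was not tested.

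Many differences in this comparison were between a level and a listed 0. The values used here are estimates and not read counts, and estimates can fail, so a 0 is given here as listed and not as absence of the transcript. Gapdh, a glycolytic enzyme that nearly all cells use, was listed at 0 and 0.183 FPKM in 2C and at 0.241 and 0.519 FPKM in CX22. Actb, the cytoskeletal beta-actin, was at 89.8 and 94.1 FPKM in 2C and 75.1 and 39.3 FPKM in CX22 (limma adjusted p = 0.572). Among genes above 0 in both 2C libraries at a mean of up to 1 FPKM, 25.4% of 2275 were listed at 0 in both CX22 libraries and 23.5% in replicate 1 only. The share at 0 in both CX22 libraries was lower at each higher 2C level, 13.3% of 1964 genes from 2 to 5 FPKM, 1.57% of 2098 from 10 to 30 FPKM, and none of 716 above 100 FPKM. CX22 replicate 1, the shallower library of the pair, held more zeros than replicate 2 at each level up to 100 FPKM. The implied depths put 10 FPKM on a transcript of 2 kb at 195 to 257 fragments in these 4 libraries, and the part of depth in the zeros was not tested. Of 4024 genes at 10 FPKM or more in both 2C libraries, 31 were listed at 0 in both CX22 libraries, 108 in replicate 1 only and 51 in replicate 2 only. The other groups held such zeros too, 158 of the same 4024 genes in both 8C libraries and 60 in both CX45 libraries.

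**Figure D1:**
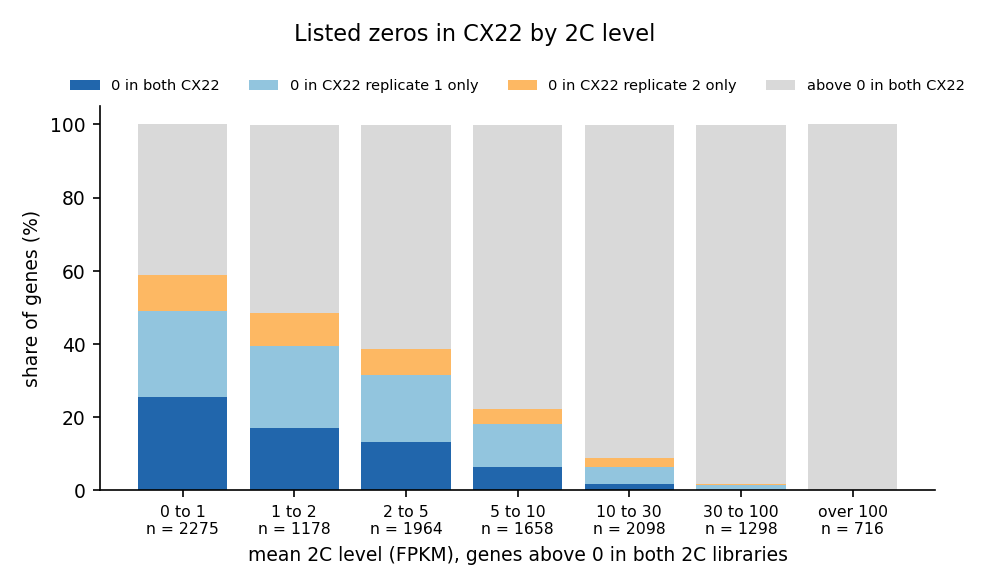
Share of genes listed at 0 FPKM in both CX22 libraries, in replicate 1 only or in replicate 2 only, by mean 2C level in FPKM (bars, percent of genes above 0 in both 2C libraries). Genes above 0 in both CX22 libraries make up 41.1% up to 1 FPKM and all of the 716 genes above 100 FPKM.

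Limma called 460 of 11852 genes tested (3.88%), 71 higher in CX22 (0.599%) and 389 lower (3.28%), at an adjusted p under 0.05 and a log2 difference of at least 1. The directions were not tested alike. With 2C averaged to 1 sample, 2C added no spread, and a gene at 0 in both CX22 libraries had no CX22 spread either. A gene at 0 in both 2C libraries kept its CX22 spread. The test used log2(FPKM + 1), which understates the change of low genes. Calls fell unevenly on measured genes and on listed zeros. Of 7659 tested genes above 0 in all 4 libraries, 65 were called (0.849%), 30 higher (0.392%) and 35 lower (0.457%). Quantile normalization, which moved the median over all genes tested from -0.07 to 0.05, gave 21 higher and 8 lower in that class. Of 4193 with a 0 in 1 or more of the 4, 395 were called (9.42%). Among those, 265 of 1385 genes listed at 0 in both CX22 libraries were called lower (19.1%) and 33 of 1369 listed at 0 in both 2C libraries were called higher (2.41%). Both totals include 558 genes at 0 in all 4 libraries, which could not be called. Of genes above 0 in both libraries of the other group, the shares were 265 of 715 (37.1%) and 33 of 286 (11.5%). These shares are not comparable call rates, because only zeros in CX22 take spread out of the fit. The remaining 97 calls had a 0 in 1 library. In bulk samples, fewer cells with a transcript and less of it per cell cannot be told apart.

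**Figure D2:**
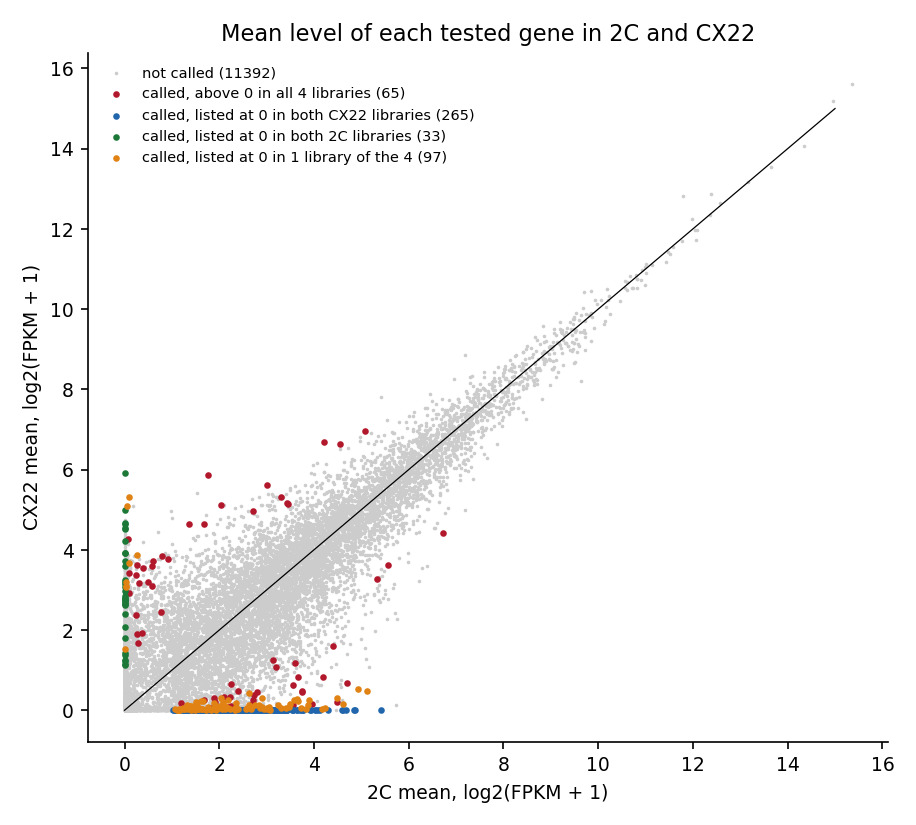
Mean level of each of 11852 tested genes in 2C (horizontal) and CX22 (vertical), both as log2(FPKM + 1); the line marks equal levels and colours mark genes called by limma. The 265 genes called lower and listed at 0 in both CX22 libraries lie along the bottom edge, and the 65 called genes above 0 in all 4 libraries (0.849%) lie on both sides of the line.

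Most measured genes stayed near their 2C level in at least 1 CX22 library. Of the 7659 genes, 3846 (50.2%) lay within 1 of the 2C mean on the log2 scale in both CX22 libraries. A further 1690 (22.1%) lay 1 or more away in CX22 replicate 1 alone and 1056 (13.8%) in replicate 2 alone. Both replicates lay 1 or more above for 442 genes (5.77%) and 1 or more below for 468 (6.11%), and the replicates moved apart in opposite directions for 157 (2.05%).

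Several genes rose from a low 2C level. Isy1 (chr6:87768442-87788753, mm9), which encodes a spliceosome component, stood at 0.0514 and 0.0481 FPKM in 2C and 17.2 and 19.3 FPKM in CX22. It rose by 4.20 on the log2(FPKM + 1) scale (SE 0.39, limma adjusted p = 0.0114), the largest rise of a called measured gene averaging 10 FPKM or more in CX22, and its 8C values of 5.50 and 4.93 FPKM lay between the groups. Eif4ebp1 (chr8:28370799-28386128), whose protein binds the cap-binding factor eIF4E and holds back translation initiation, was at 2.37 and 2.38 FPKM in 2C and 77.6 and 36.8 FPKM in CX22. The rise was 4.01 (SE 0.54, limma adjusted p = 0.0306), with the CX22 libraries apart from each other but both far above 2C. Eif2d, a noncanonical initiation and recycling factor, rose from 0.968 and 0.827 FPKM to 10.2 and 15.3 FPKM (log2 2.83, SE 0.43, adjusted p = 0.0419). Rpl10l, a retrogene copy of the ribosomal protein gene Rpl10, stood at 7.64 and 6.47 FPKM in 2C and 48.0 and 47.6 FPKM in CX22 (log2 2.60, SE 0.22, adjusted p = 0.00913). Reads from near-identical Rpl10 copies could be split between loci, so its level is uncertain.

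Other risen genes had varied known roles. Chek2, the DNA damage checkpoint kinase, stood at 0.568 and 0.408 FPKM in 2C and 12.4 and 9.78 FPKM in CX22 (log2 3.01, SE 0.40, limma adjusted p = 0.0306). Kat8, the acetyltransferase that acts on histone H4, was at 0.534 and 0.499 FPKM in 2C and 15.9 and 8.58 FPKM in CX22 (log2 3.07, SE 0.48, adjusted p = 0.0468). Kat8 overlaps Prss8 in the annotation, and when only the transcript entry with the highest mean was kept its difference was 0.00. Akirin1, a nuclear protein, rose from 0.667 and 0.788 FPKM to 16.0 and 10.9 FPKM. Arg1, the arginase of the urea cycle, rose from 0.282 and 0.105 FPKM to 14.9 and 7.83 FPKM, and Eci1, a mitochondrial isomerase of fatty acid oxidation, from 1.53 and 1.64 FPKM to 28.9 and 19.2 FPKM. These genes were chosen for CX22 libraries that both lay above both 2C libraries. In all of them both 8C libraries also stood above both 2C libraries, from 21.4 FPKM (Kat8) to 49.9 FPKM (Akirin1).

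In 12 of the 30 risen genes above 0 in all 4 libraries, both 8C values lay below both CX22 values, as in Isy1. Zc3h12b, of a family of endoribonucleases, stood at 0.272 and 0.347 FPKM in 2C and 8.84 and 12.7 FPKM in CX22, but at 0.200 and 0 in 8C. Ggnbp2 rose from 2.78 and 3.43 FPKM to 36 and 31.5 FPKM (log2 3.08, SE 0.32, limma adjusted p = 0.0148), against 12.5 and 13.4 FPKM in 8C, and overlaps an antisense transcript, Ggnbp2os. Calhm6, a calcium homeostasis modulator family member, rose from 2.54 and 1.87 FPKM to 28.6 and 19.8 FPKM, against 8.74 and 9.89 FPKM in 8C. Over the 30 risen genes above 0 in all 4 libraries the median level was 0.616 FPKM in 2C, 12.5 in CX22 and 33.3 in 8C, and the median transcript length was 1990.5 bases, against 2614 over all genes tested.

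**Figure D3:**
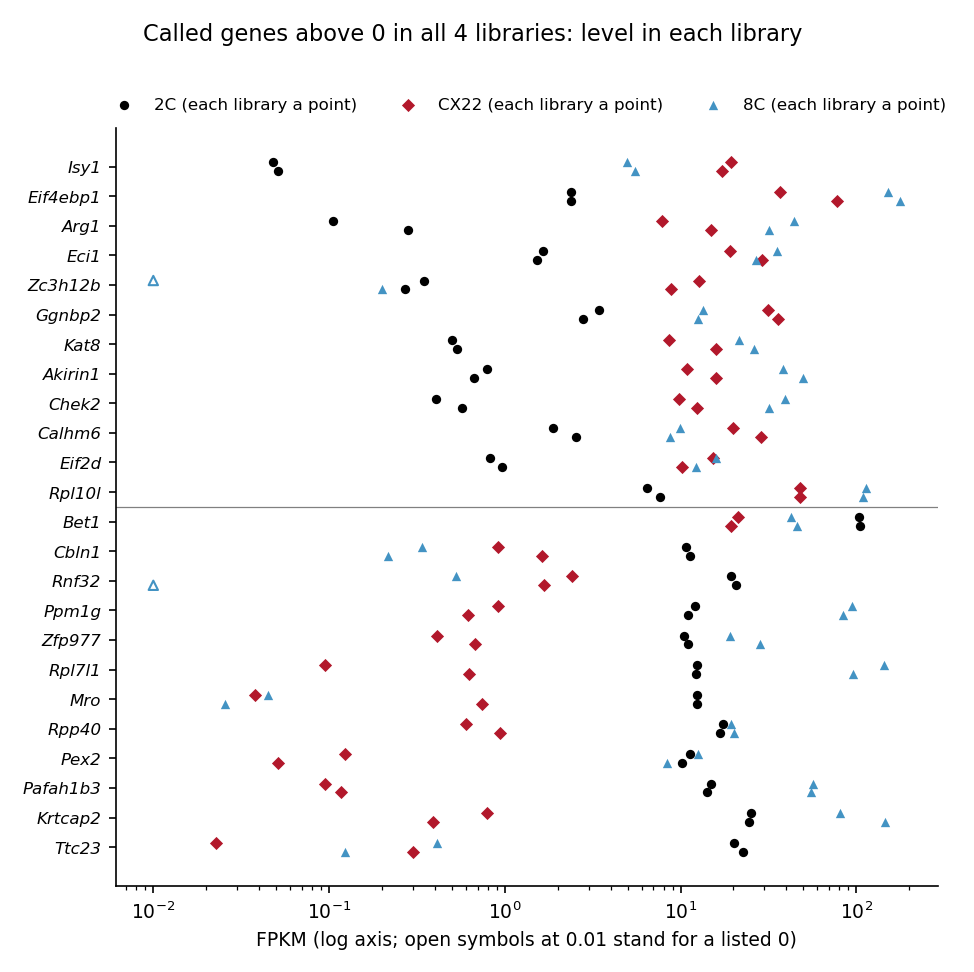
FPKM on a log axis in each 2C, CX22 and 8C library for called genes above 0 in all 4 libraries whose higher group averaged 10 FPKM or more, the 12 of largest rise and the 12 of largest fall (rises above the line, falls below; open symbols stand for a listed 0). The genes were chosen for groups that do not overlap, so both CX22 points lie right of both 2C points in the upper block and left in the lower block.

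The 35 genes that fell and were above 0 in all 4 libraries included Pafah1b3, Rpp40, Psma4 and Bet1. Pafah1b3 (chr7:26080068-26083005), a catalytic subunit of platelet-activating factor acetylhydrolase, stood at 14.2 and 14.9 FPKM in 2C and 0.117 and 0.0949 FPKM in CX22, with both CX22 values at or under the level of 3 fragments on a 2 kb transcript. It fell by 3.81 on the log2(FPKM + 1) scale (SE 0.33, limma adjusted p = 0.00924). Rpp40, a protein subunit of ribonuclease P and MRP, which cut precursors of tRNA and rRNA, was at 16.8 and 17.5 FPKM in 2C and 0.934 and 0.604 FPKM in CX22, and fell by 3.37 (SE 0.34, adjusted p = 0.0139). Rpl7l1, a ribosomal protein L7 relative, fell from 12.2 and 12.4 FPKM to 0.628 and 0.0951 FPKM, with the CX22 libraries differing from each other. Psma4, a subunit of the proteasome core, was at 40.6 and 37.9 FPKM in 2C and 9.98 and 7.24 FPKM in CX22 (log2 -2.08, SE 0.31, adjusted p = 0.04), and overlaps AY074887. Bet1, a SNARE of endoplasmic reticulum to Golgi transport, had the highest 2C level of the 12, 105 and 103 FPKM, and 19.3 and 21.1 FPKM in CX22 (log2 -2.31, SE 0.27, adjusted p = 0.021).

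Other falls left values under 3 FPKM in both CX22 libraries. Krtcap2, a subunit of the oligosaccharyltransferase that glycosylates proteins, fell from 24.5 and 25.2 FPKM to 0.391 and 0.790 FPKM. Pex2, a peroxisome assembly factor, fell from 10.2 and 11.3 FPKM to 0.0510 and 0.124 FPKM, with a difference of 0.00 when only the transcript entry with the highest mean was kept. Ppm1g, a nuclear protein phosphatase, fell from 11 and 12.1 FPKM to 0.614 and 0.916 FPKM. In 8C, Krtcap2 (145 and 80.4 FPKM) and Ppm1g (84.5 and 94.8 FPKM) stood above 2C, while Ttc23 (22.7 and 20.2 FPKM in 2C, 0.302 and 0.0228 FPKM in CX22), Mro, Rnf32 and Cbln1 were under 0.6 FPKM in both 8C libraries. Ttc23 gave the largest fall of a called measured gene averaging 10 FPKM or more in 2C, 4.28 on the log2 scale (SE 0.55, limma adjusted p = 0.0262). Rnf32 encodes a ring finger protein and stood at 20.7 and 19.3 FPKM in 2C against 1.68 and 2.42 FPKM in CX22. The falls of measured genes had a median 2C level of 5.67 FPKM and a median transcript length of 2812 bases. Closest to the threshold were Entpd1 and Sgsm1 among called genes (limma adjusted p = 0.0478 for each) and Dzip1 (0.0505) and Otud6b (0.0507) among those not called.

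The largest class of calls was of genes with a level in 2C and a listed 0 in both CX22 libraries. The highest was Dnajc19 (chr3:33956202-33980276), a mitochondrial protein with a J domain that works at the import motor, at 41.6 and 41.7 FPKM in 2C, listed at 0 in both CX22 libraries and at 111 and 77.9 FPKM in 8C (limma adjusted p = 0.00542). Ethe1, a mitochondrial sulfur dioxygenase, was at 26.7 and 28.9 FPKM in 2C and 45.8 and 40.0 FPKM in 8C (adjusted p = 0.00925), again with 0 in both CX22 libraries. Fh1, the fumarate hydratase of the citric acid cycle, was at 24.1 and 21.9 FPKM in 2C and 1.61 and 2.11 FPKM in 8C (adjusted p = 0.0331). Dnajc19 and Ethe1 thus had a level in 2C and 8C and none listed in CX22. Rpain, which carries the replication protein RPA into the nucleus, was at 24.1 and 25 FPKM in 2C and listed at 0 in both CX22 and both 8C libraries (adjusted p = 0.00478). The X-linked Cypt2 (29.4 and 27.0 FPKM in 2C) and the antisense transcript Rbm3os (21.1 and 25.6 FPKM) had the same pattern. Rpain and Rbm3os were at 0 in both CX45 libraries too, so their p rests on spread borrowed from other genes. S100a16, at 21.0 and 21.2 FPKM in 2C, was not called (adjusted p = 0.119).

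Of the 265 genes called lower with zeros in both CX22 libraries, 157 were also at 0 in both 8C libraries and 150 in both CX45 libraries. Their median 2C level was 3.36 FPKM and their median transcript length 2078 bases. Among them, 60 (22.6%) overlapped another gene, against 20.9% of all genes tested. Dnajc19 overlaps Fxr1, Rpain overlaps C1qbp, Ethe1 overlaps Zfp575 and Rbm3os overlaps Rbm3, and the deposited values do not show how reads of overlapping genes were assigned. No fold is given against a listed 0.

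The reverse pattern, listed at 0 in both 2C libraries and at 10 FPKM or more in both CX22 libraries, held for 13 of 3206 genes at that level in CX22. Diablo (chr5:123961339-123974173), a mitochondrial protein that binds inhibitors of apoptosis when released, stood at 24.6 and 37.4 FPKM in CX22 and at 71.6 and 119 FPKM in 8C (limma adjusted p = 0.0106). Oip5, which loads the centromeric histone with its partners, was at 22.4 and 25.5 FPKM in CX22 and 20.6 and 29.0 FPKM in 8C (adjusted p = 0.0148). Shoc2, a scaffold of the Ras pathway, was at 19.1 and 25.6 FPKM in CX22 and 4.67 and 3.61 FPKM in 8C (adjusted p = 0.0148), but it was not called when only the transcript entry with the highest mean was kept (adjusted p = 0.751). Lactb2, a mitochondrial endoribonuclease, was at 20.7 and 14.5 FPKM in CX22 and 50.3 and 48.9 FPKM in 8C (adjusted p = 0.0124). Pate7 (13.2 and 15 FPKM) was called as well, while Pyy (11.3 and 28.9 FPKM), Phf11c (13.4 and 16.3 FPKM) and H2bu2 (11.1 and 16.3 FPKM) were not (adjusted p = 0.0861, 0.234 and 0.0564). Oip5, Shoc2, Lactb2 and Pate7 were not called without either 8C library, while Diablo was. Of the 33 genes called higher from zeros in both 2C libraries, 13 (39.4%) overlapped another gene, among them Diablo (B3gnt4), Oip5 (Nusap1) and Shoc2 (Bbip1).

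Of genes at 10 FPKM or more in both 2C libraries and in 1 CX22 library but listed at 0 in the other, the 3 of highest value were taken per CX22 library, and none of these 6 was called. Fam216a was at 22.5 and 24.1 FPKM in 2C, at 107 FPKM in CX22 replicate 1 and listed at 0 in replicate 2 (limma adjusted p = 0.937). Sertad1 (11.1 FPKM in both 2C libraries) and Tnfrsf12a (13.5 and 13.6 FPKM) behaved alike, with 68.6 and 44.2 FPKM in CX22 replicate 1 and 0 in replicate 2. In the opposite order, the splicing protein gene Snrpd3 was at 12.4 and 10.3 FPKM in 2C, at 0 in CX22 replicate 1 and at 71.9 FPKM in replicate 2. Dpm2 (61.7 FPKM) and Plpp1 (56.3 FPKM) likewise had a level in CX22 replicate 2 only. For these genes a group mean describes neither library.

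Of 82 cytosolic ribosomal protein genes tested, 3 rose (3.66%, against 0.599% of all genes tested) and 0 fell (against 3.28%). The median over the list was 0.26 on the log2 scale, against -0.07 over all genes tested. The libraries contributed unequally, with a median of 0.55 in CX22 replicate 1 and 0.05 in replicate 2. Rps6, of the small subunit, was at 21.2 and 23.6 FPKM in 2C and 87.8 and 108 FPKM in CX22 (log2 2.07, SE 0.25, limma adjusted p = 0.0219). Rps15, also of the small subunit, was at 32.4 and 33.6 FPKM in 2C and 120.2 and 126 FPKM in CX22 (log2 1.87, SE 0.26, adjusted p = 0.032). Rpl5, which joins the 5S RNA in the large subunit, was at 9.59 and 10.1 FPKM in 2C and 36 and 34.4 FPKM in CX22 (log2 1.74, SE 0.22, adjusted p = 0.0263). In each the CX22 libraries lay close together and above both 2C libraries. Without a call, 9 further members lay at least 1 above 2C with no overlap, among them Rpl6 (20.5 FPKM in both 2C libraries, 48.1 and 49.9 FPKM in CX22, adjusted p = 0.0773), which made 12 of 82 against 9.40% of all genes tested. All 12 were above 0 in all 4 libraries, where they were 12 of 79 members (15.2%) against 10.7% of all measured genes. None of the 79 lay at least 1 below in the same way, against 12.9% of measured genes. The summed level of the list was 18383 and 18261 FPKM in the 2C libraries, 23419 and 19118 FPKM in CX22 and 152154 and 146737 FPKM in 8C. The 2C and CX22 sums rest heavily on Rps27l, which is also on the p53 list. It stood at 9365 and 9013 FPKM in 2C, 8950.1 and 9535 FPKM in CX22 and 2462 and 2035 FPKM in 8C. Under quantile normalization the list median was 0.32 and Rps15 was not called (adjusted p = 0.0508).

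The promoters of the 3 risen ribosomal protein genes are printed because ribosomal protein messages usually start with a pyrimidine tract at or near the transcription start. The sequences are from RefSeq on GRCm38.p6, from 60 bases before to 20 bases after the annotated start, with the letters CTCTTT in capitals where they occur; the motif was chosen after the sequences were seen. Rps6 spans chr4:86857348-86857427 on the minus strand, Rpl5 chr5:107900468-107900547 on the plus strand and Rps15 chr10:80292371-80292450 on the plus strand.
Rps6: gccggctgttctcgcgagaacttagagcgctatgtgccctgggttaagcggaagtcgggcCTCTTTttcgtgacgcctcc
Rpl5: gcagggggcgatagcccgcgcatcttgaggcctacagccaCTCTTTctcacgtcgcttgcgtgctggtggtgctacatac
Rps15: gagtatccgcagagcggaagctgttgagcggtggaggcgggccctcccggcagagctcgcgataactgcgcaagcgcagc
CTCTTT began at the annotated start in Rps6, 20 bases before it in Rpl5, and did not occur in the Rps15 stretch. On either strand of the 300 bases around the start it occurred in 23.0% of 32851 promoters and in 47.2% of the 72 promoters of ribosomal protein genes in the reference. On the gene's strand of the 80 bases shown it occurred in 3.4% and 18.1%. A match describes these letters only.

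RNA polymerase I genes gave no call in either direction, with 1 higher and 1 lower of 17 tested with an unadjusted limma p below 0.05. Over all 11852 genes tested, 606 were higher and 1309 lower at such a p, which is the background for this and later lists. The median was 0.29, against -0.07 over all genes tested, and 0.14 and 0.0 in the separate CX22 libraries. It was 0.52 under quantile normalization and 0.0 with a pseudocount of 0.1. The initiation factor gene Rrn3 was at 45.3 and 43.9 FPKM in 2C and 41.9 and 27.9 FPKM in CX22 (limma adjusted p = 0.726). Polr1a, the largest subunit, was at 0.395 and 0.382 FPKM in 2C and at 1.86 and 0.0135 FPKM in CX22, on opposite sides of 2C. Polr1b, the second largest, was at 2.73 and 2.51 FPKM in 2C and 0.256 and 0.950 FPKM in CX22, both below 2C without passing the test (adjusted p = 0.379). The termination factor gene Ttf1 was lower in both CX22 libraries, at 0.566 and 0.0995 FPKM against 4.91 and 5.08 FPKM (adjusted p = 0.127). Znrd1, a small subunit, was higher, at 81.5 and 39.8 FPKM against 15.6 and 19.5 FPKM (adjusted p = 0.174). Ubtf, which shapes active ribosomal DNA, was at 0.152 and 0.231 FPKM in 2C and 0.584 and 3.73 FPKM in CX22.

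Ribosome biogenesis factors gave 1 rise and 1 fall of 110 tested (0.909% each, against 0.599% and 3.28% of all genes tested), with a median of -0.07 (0.13 under quantile normalization). Rrp1 rose from 0.207 and 0.155 FPKM to 4.07 and 4.36 FPKM (log2 2.14, SE 0.31, limma adjusted p = 0.0394), against 47.6 and 52.4 FPKM in 8C, and the fall was that of Rpl7l1. Fibrillarin and nucleolin genes were not called: Fbl stood at 3.59 and 3.90 FPKM in 2C and 1.85 and 3.21 FPKM in CX22, and Ncl at 14.8 and 12.7 FPKM in 2C and 31.7 and 14.9 FPKM in CX22. RNA polymerase II subunits (13 tested, median -0.03, or 0.08 under quantile normalization), RNA polymerase III machinery (21, median -0.36, or -0.03 under quantile normalization) and translation factors (45, median -0.13) gave 0 calls. With an unadjusted limma p under 0.05 these lists had 1 higher and 0 lower, 0 higher and 1 lower, and 2 higher and 5 lower. Of all 11852 genes tested, 606 were higher and 1309 lower in this way. The polymerase II subunit gene Polr2h was at 30.4 FPKM in both 2C libraries and 144 and 79.8 FPKM in CX22 (adjusted p = 0.117). The polymerase III factor Brf1 was at 3.26 and 4.07 FPKM in 2C and 0 and 0.0899 FPKM in CX22 (adjusted p = 0.0772).

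**Figure D4:**
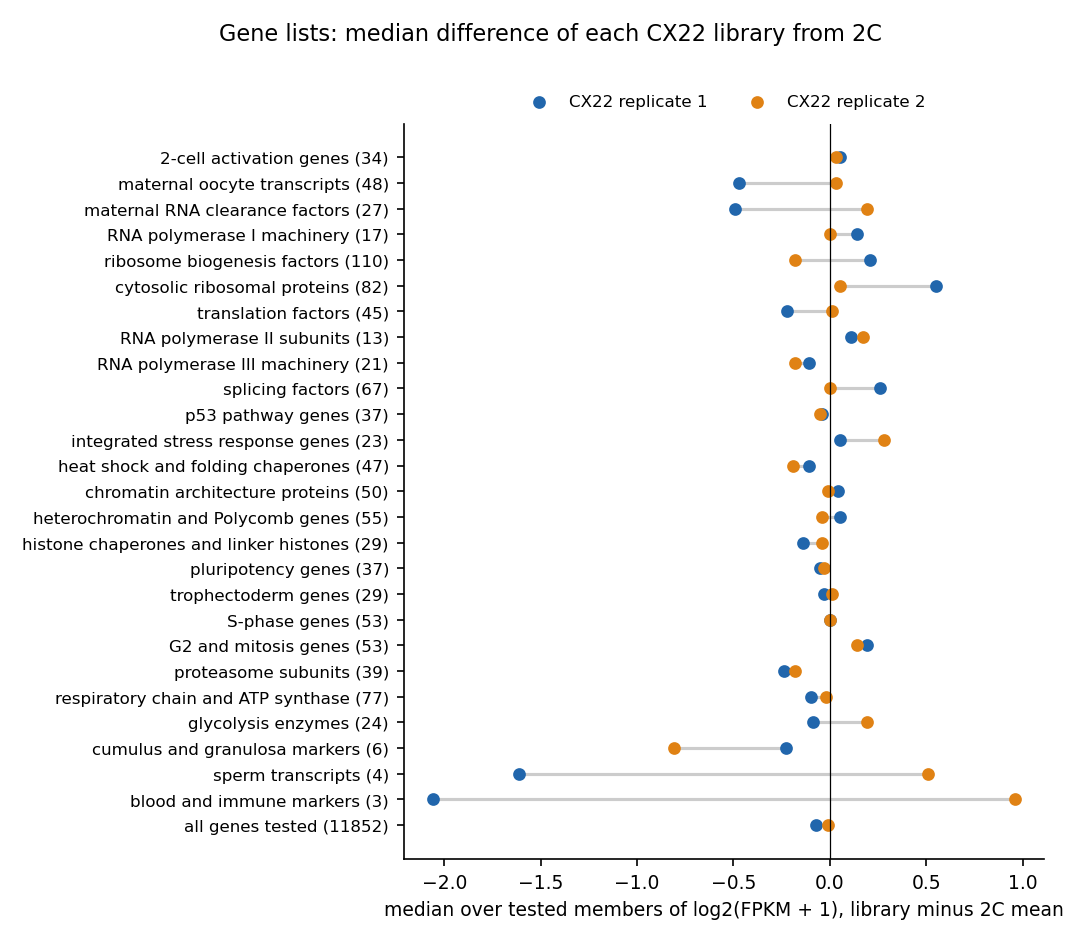
Median over the tested members of each gene list (number tested in brackets) of the difference of a CX22 library from the 2C mean, in log2(FPKM + 1), with a listed 0 entered as 0. Ribosomal proteins lie at 0.55 in CX22 replicate 1 and 0.05 in replicate 2, and all genes tested at -0.07 and -0.01.

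Genes of the transient 2-cell programme gave 0 calls of 34 tested, with 0 higher and 1 lower with an unadjusted limma p below 0.05 and a median of 0.23. That median was 0.05 and 0.03 in the separate CX22 libraries, 0.34 under quantile normalization and 0.06 with a pseudocount of 0.1. Zscan4d, the most abundant Zscan4 gene here, was at 71.1 and 63.6 FPKM in 2C, 107 and 148 FPKM in CX22, and 0 and 0.817 FPKM in 8C (log2 0.89, SE 0.66, adjusted p = 0.67). Zscan4a, Zscan4b, Zscan4c and Zscan4f were also higher in both CX22 libraries than in both 2C libraries, and none was called. They are near-identical copies, so reads may be split between them and they are not independent. Zfp352, another gene of the burst, was at 126 FPKM in both 2C libraries and 113 and 96.3 FPKM in CX22. Arg2 was lower, at 16.8 and 10.9 FPKM against 39.0 and 37.7 FPKM (adjusted p = 0.243).

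Maternal oocyte transcripts gave 0 calls of 48 tested, with 0 higher and 1 lower with an unadjusted limma p below 0.05. Their median was -0.23, with -0.47 in CX22 replicate 1 and 0.03 in replicate 2. Padi6, of the cytoplasmic lattices of the egg, was at 13.9 and 12.6 FPKM in 2C and 2.45 and 3.08 FPKM in CX22 (adjusted p = 0.23). The oocyte transcription factor gene Nobox was at 19.8 and 17.7 FPKM in 2C and 0.162 and 4.10 FPKM in CX22 (adjusted p = 0.355). The abundant Oosp2 was at 729 and 718 FPKM in 2C and 291 and 533 FPKM in CX22. Omt2b, picked because of its values, stood at 83519 and 0 FPKM in 2C and 99972 and 0 FPKM in CX22, while its near-identical neighbour Omt2a was at 30570.3 and 33189 FPKM in 2C and 40419.8 and 33867 FPKM in CX22. Factors that clear maternal RNA gave 0 calls of 27, with 0 higher and 0 lower with an unadjusted p below 0.05 and a median of -0.24.

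Stress pathway lists gave few calls, where all genes tested gave 0.599% higher and 3.28% lower. Of 37 genes of the p53 pathway 1 fell (2.70%), Fas, a death receptor. It was at 5.82 and 6.08 FPKM in 2C and listed at 0 in both CX22 and both 8C libraries (limma adjusted p = 0.00478). Fas was at 0 in both CX45 libraries too, so it had no spread of its own and its p rests on spread borrowed from other genes. Trp53 itself was at 2.68 and 2.86 FPKM in 2C and 10.3 and 8.44 FPKM in CX22 (log2 1.46, SE 0.58, adjusted p = 0.33). Its targets Mdm2 (23.9 and 25.2 FPKM in 2C, 46.8 and 52.0 FPKM in CX22, adjusted p = 0.272) and Cdkn1a (12 and 11.7 FPKM, 18.5 and 11.4 FPKM) were not called. Mdm2 was above 2C in both CX22 libraries, and Cdkn1a only in replicate 1. The list median was -0.03. Of its 29 members above 0 in all 4 libraries, 6 (20.7%) lay at least 1 below 2C without overlap and 2 (6.90%) above. All measured genes gave 12.9% below and 10.7% above. Integrated stress response genes gave 1 rise (4.35%), Eif4ebp1, and 1 fall (4.35%), Stc2, of 23 tested, with a median of 0.37. Stc2 was at 1.90 and 1.87 FPKM in 2C and 0 in both CX22 libraries (limma adjusted p = 0.0266), and was called in 11 of 16 alternatives. Of the 15 members above 0 in all 4 libraries, 5 (33.3%) lay at least 1 above 2C without overlap and 1 (6.67%) below. All measured genes gave 10.7% and 12.9%. The alanyl-tRNA synthetase gene Aars was at 0.605 and 0.608 FPKM in 2C and 5.42 and 5.56 FPKM in CX22 (log2 2.01, SE 0.39, adjusted p = 0.0764), and Ppp1r15a was at 5.82 and 6.51 FPKM in 2C and 14.6 and 15.3 FPKM in CX22 (adjusted p = 0.282). Of 47 heat shock and folding chaperones, 1 fell (2.13%), Hspa12a. It was at 1.58 and 1.70 FPKM in 2C and 0 and 0.154 FPKM in CX22 (limma adjusted p = 0.0449), and was called in 10 of 16 alternatives. The list median was -0.17. Of its 42 measured members, 3 (7.14%) lay at least 1 above 2C without overlap and 2 (4.76%) below.

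Among 37 pluripotency genes 1 fell (2.70%, against 3.28% of all genes tested), Sox2. It stood at 4.55 and 3.95 FPKM in 2C, 0.373 and 0.435 FPKM in CX22, and 0 and 0.02 FPKM in 8C (log2 -1.90, SE 0.28, limma adjusted p = 0.038), and it lies within the transcript Sox2ot in the annotation. Sox2 was called in 9 of 17 alternatives and not under quantile normalization. The list median was -0.05. Of its 23 members above 0 in all 4 libraries, 6 (26.1%) lay at least 1 below 2C without overlap, against 12.9% of all measured genes. Pdgfra was at 2.86 and 2.59 FPKM in 2C and listed at 0 in both CX22 libraries without a call (adjusted p = 0.0549). Klf4 was higher in CX22, at 26.1 and 14.8 FPKM against 5.49 and 5.83 FPKM (adjusted p = 0.178). Pou5f1 (0.252 and 0 FPKM in 2C, 0 and 2.32 FPKM in CX22) and Nanog (0.0834 and 0.176 FPKM, 0.307 and 0.207 FPKM) were at low levels in all 4 libraries. Trophectoderm genes gave 0 calls of 29, with 1 higher and 3 lower with an unadjusted p below 0.05. The membrane linker gene Ezr was at 22.6 and 22.3 FPKM in 2C and 1.10 and 0.0538 FPKM in CX22 (adjusted p = 0.0694), and the junction gene Cldn7 was at 8.08 and 6.14 FPKM in 2C and at 0 in both CX22 libraries (adjusted p = 0.0694).

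Chromatin and cell cycle lists gave 0 calls each. Of all 11852 genes tested, 606 were higher and 1309 lower with an unadjusted limma p under 0.05. With an unadjusted limma p under 0.05, chromatin architecture proteins had 3 higher and 2 lower of 50 (median 0.01), heterochromatin and Polycomb genes 4 higher and 2 lower of 55 (median -0.23, or 0.06 under quantile normalization), and histone chaperones and linker histones 0 higher and 1 lower of 29 (median -0.04). Ezh1, a methyltransferase of Polycomb repressive complexes, was at 16.7 and 15.6 FPKM in 2C and 2.26 and 0.864 FPKM in CX22 (adjusted p = 0.0807). Suv39h1, which methylates histone H3 in heterochromatin, was at 3.95 and 4.67 FPKM in 2C and 13.3 and 17.5 FPKM in CX22 (adjusted p = 0.142). S-phase genes had 2 higher and 4 lower of 53 (median 0.12), G2 and mitosis genes 2 higher and 2 lower of 53 (median 0.05), and splicing factors 8 higher and 2 lower of 67 (median 0.12). The spliceosome gene Sf3a1 was at 0.474 and 0.317 FPKM in 2C and 5.61 and 6.39 FPKM in CX22 (adjusted p = 0.0663), and U2af1 at 5.94 and 6.86 FPKM in 2C and 21.7 and 27.7 FPKM in CX22 (adjusted p = 0.0771). Cdk1, the mitotic kinase, was at 7.12 and 7.29 FPKM in 2C and 24.0 and 17.4 FPKM in CX22 (adjusted p = 0.26).

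Metabolic and proteolytic lists had few calls. Proteasome subunits gave 1 fall of 39 (2.56%, against 3.28% of all genes tested), Psma4, with a median of -0.28. Of the 37 above 0 in all 4 libraries, 7 (18.9%) lay at least 1 below 2C without overlap, against 12.9% of all measured genes. The proteasome activator genes Psme1 (1.28 and 1.43 FPKM in 2C, 8.89 and 10.8 FPKM in CX22) and Psme2 (0.418 and 1.37 FPKM, 20.7 and 6.74 FPKM) were higher without a call (limma adjusted p = 0.0773 and 0.15). Respiratory chain and ATP synthase genes gave 0 calls of 77, with 4 higher and 6 lower with an unadjusted p below 0.05 and a median of -0.23. Over all 11852 genes tested, 606 were higher and 1309 lower at such a p. Glycolysis enzymes gave 1 fall of 24 (4.17%, against 3.28% of all genes tested), Eno1. It was at 1.13 and 2.54 FPKM in 2C and 0 in both CX22 libraries (limma adjusted p = 0.0419). That call was lost in 7 of 16 alternatives, among them quantile normalization (limma adjusted p = 0.129) and the fit without 2C replicate 2. Of marker lists of other cells, cumulus and granulosa genes gave 1 fall of 6 (16.7%, against 3.28% of all genes tested), Star. Its level was 3.39 and 3.46 FPKM in 2C and 0 in both CX22 libraries (limma adjusted p = 0.0279), and it was called in 9 of 16 alternatives. Sperm transcripts gave 0 calls of 4 and blood markers 0 of 3, with 0 higher and 0 lower, and 1 higher and 0 lower, with an unadjusted p below 0.05.

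The calls on measured genes depended on which genes and libraries entered the fit. When limma was fitted on the 7659 genes above 0 in all 4 libraries alone, 0 were called, with a lowest adjusted p of 0.191 and with 433 higher and 434 lower with an unadjusted p below 0.05. In the fit over all 11852 genes the same 7659 gave 65 calls, a lowest adjusted p of 0.00827 (Abhd15) and 426 higher and 418 lower with an unadjusted p below 0.05. The calls also depended on single libraries: without 8C replicate 1 the count on measured genes was 0 higher and 4 lower, and without 8C replicate 2 it was 0 and 3. Without CX22 replicate 1 it was 84 and 120, and without CX22 replicate 2 it was 180 and 240, where the single CX22 library left took its spread from the other groups. Without CX45 replicate 1 it was 11 and 25, and without CX45 replicate 2 it was 12 and 26. Of 460 calls, 186 held with each of the 8 libraries left out in turn. These were 158 of the 265 lower genes with zeros in both CX22 libraries, 25 of the 89 lower genes with a 0 in 1 CX22 library, 1 of the 33 higher genes with zeros in both 2C libraries (Diablo), and 2 of the 65 measured genes (Sec24d and Abhd15). Sec24d and Abhd15 are lower genes. Sec24d, a coat protein of vesicles leaving the endoplasmic reticulum, was at 2.80 and 2.62 FPKM in 2C and 0.239 and 0.214 FPKM in CX22. Abhd15 was at 2.46 and 1.70 FPKM in 2C and 0.0315 and 0.0254 FPKM in CX22. Both CX22 values of Abhd15 lay under the level of 3 fragments on a 2 kb transcript. With 2C averaged to 1 sample, the spread came only from 8C, CX22 and CX45. Genes listed at 0 in all libraries of those groups, such as Rpain, Rbm3os and Fas, had no spread of their own. Leaving out a library of those groups could hardly undo such a call, so keeping it is no evidence of its reliability. Among the named measured genes, Isy1, Pafah1b3 and Rpp40 were called in 15 of the 18 alternatives and Rpl7l1 in 6. With only 2C and CX22 libraries an exact permutation test of a single gene has 6 regroupings and a smallest two-sided p of 0.33, so such a test cannot reach 0.05.

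**Figure D5:**
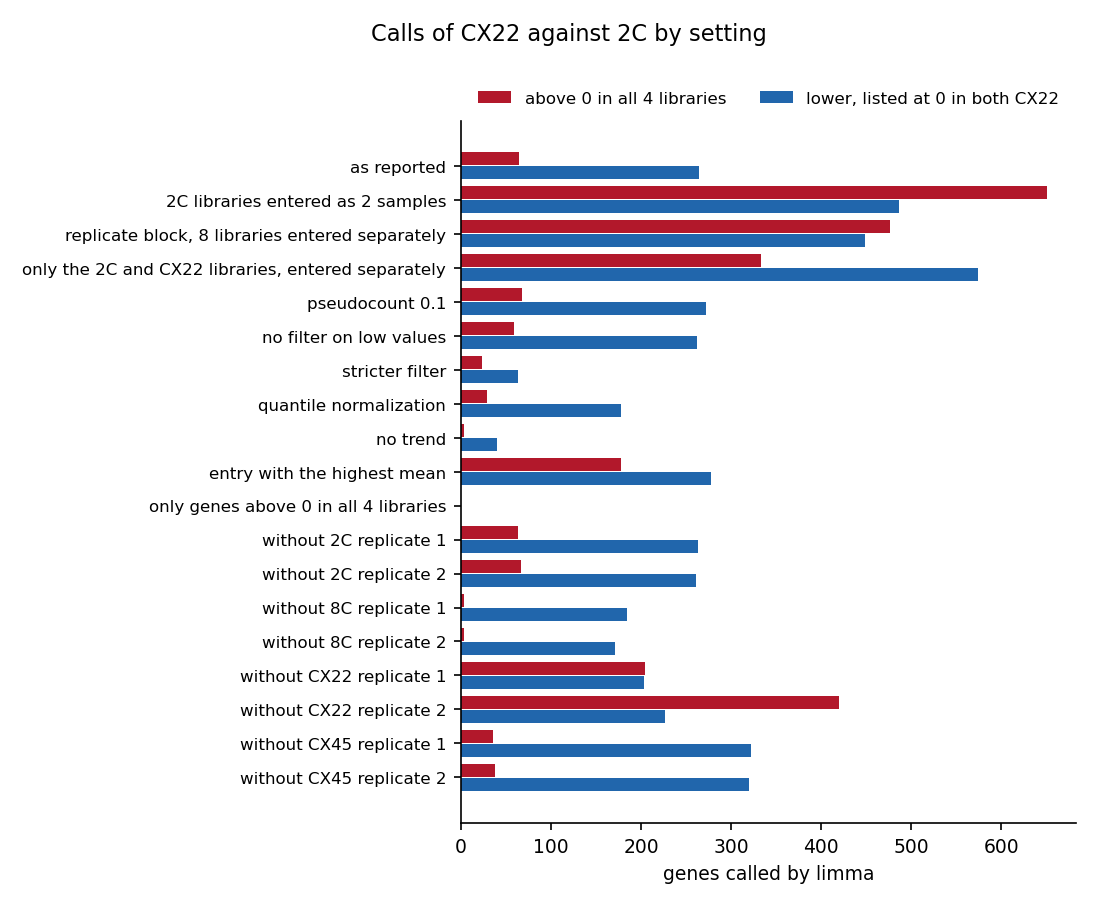
Number of genes called by limma in CX22 against 2C under each setting (horizontal bars), for genes above 0 in all 4 libraries in both directions and for genes called lower and listed at 0 in both CX22 libraries. The count for measured genes is 65 as reported (0.849%), 0 when only such genes are fitted, and 3 or 4 without an 8C library.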

How the data were processed

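RNA was measured by Smart-seq in 8 libraries of mouse embryos, on the BGISEQ500 platform per the labels' protocols. Reads were processed with HISAT2 4.8.2 and Cufflinks 2.2.1 on mm9, per the submitters' processing notes; their settings, the annotation release and strandedness were not given in sources used here. The deposited FPKM values were made by the authors, with 1 value per transcript entry and library, and reads were not reprocessed.

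Of 41876 entries, 41783 carried a gene symbol, and FPKM was summed per symbol to 24789 genes; 337 accessions stood at several loci, so near-identical copies are uncertain. Entries without a symbol held 0.006% to 0.212% of the FPKM of a library. Implied depth was the number of fragments at which low values became whole within 0.05 of a fragment, which held for 51.5% to 57.6% of values, so counts were not recovered. The 11852 genes that reached 1 FPKM in 2 or more of the 8 libraries were tested on log2(FPKM + 1) with limma 3.58.1 in R 4.3.3, two-sided, with trended moderation and Benjamini-Hochberg adjustment over all genes tested. All 4 groups entered a single fit. The 2C libraries, whose chi-square over 1299 genes had a median 1.2 times that of chance against 100.93 in CX22, were averaged to 1 sample; this gives 7 samples with 3 residual degrees of freedom and takes the spread of 2C from the other groups. The fit was tested on simulated data, with 50 altered genes at each size of change. It recovered 12% of them at a log2 size of 2, 52% at 4, 62% at 6 and 90% at 8. Calls in the wrong direction numbered 0, and 4 unaltered genes were called. The fit thus missed most changes of log2 2, and a list with 0 calls may hold such changes.

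Members, lists and tests were chosen with earlier results of these data known. Named genes were the 12 highest and 12 lowest called genes above 0 in all 4 libraries with a mean of 10 FPKM or more in the higher group; 8 genes per direction at 10 FPKM or more in 1 group and at 0 in the other; 3 per CX22 library with a 0 in the other CX22 library; up to 4 genes of lowest p in each list; and a fixed set (Actb, Gapdh, Trp53, Mdm2, Cdkn1a, Nanog, Pou5f1, Zfp352, Zscan4d, Ncl, Fbl, Ubtf, Rrn3, Polr1a and Polr1b). The highest and lowest called genes also needed groups that do not overlap. Predicted and clone names were left out of these and of the genes at 0 in a whole group. Other genes were named after their values were seen. Alternatives covered the pseudocount (0.1), filters, normalization, moderation, transcript entries, the handling of 2C, a replicate block and each library left out. Coordinates are mm9, counted from 1.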

Additional observations from a re-analysis of the deposited data

How the results depend on the processing

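Counts are given as genes higher, genes lower, measured genes (above 0 in all 4 libraries) higher, measured genes lower, and genes lower with zeros in both CX22 libraries, which were 71, 389, 30, 35 and 265 as reported. With the 2C libraries as 2 samples they were 494, 1117, 330, 321 and 487, and with only the 2C and CX22 libraries 266, 991, 163, 170 and 574. With 8 separate libraries and a replicate block they were 403, 938, 257, 220 and 449. Same-numbered 2C and CX22 libraries deviated together at a correlation of only 0.06, so the numbers give no pairing. A stricter filter (5 FPKM) gave 30, 92, 14, 10 and 63, and moderation without a trend gave 11, 47, 2, 2 and 40. Quantile normalization gave 47 higher, 207 lower and 8 measured genes lower. A pseudocount of 0.1 gave 116 higher and 23 measured genes lower, and the transcript entry with the highest mean gave 108 higher, 64 measured genes higher and 114 lower. With only genes above 0 in all 4 libraries in the fit, which leaves out the classes with zeros, these counts were 0. With 1 library left out the counts ran from 1 to 308, 202 to 802, 0 to 180, 3 to 240 and 171 to 322. All 30 and 35 measured calls were also made with 2C as 2 samples and in the block fit. Both settings call far more measured genes, so keeping these calls is no evidence of their reliability. Of genes with a 0 in 1 CX22 library, Snrpd3 went from -3.63 without CX22 replicate 2 to 2.56 without CX22 replicate 1, called in both, against -0.53 as reported. Fam216a (2.15 and -4.60), Sertad1 (2.52 and -3.60), Tnfrsf12a (1.63 and -3.86), Dpm2 (-5.47 and 0.50) and Plpp1 (-4.92 and 0.92) also changed sign between the same fits. Among 30 named measured genes with a call, none kept it in all 18 alternatives: the most was 15 and the fewest 6. Apart from the alternatives whose own construction shows the cause, the cause was not tested. Depth limits statements under about 0.15 FPKM.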

Other observations

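Single genes of replication, mitosis and respiration held large differences without a call, but their lists lay near or below the share of all measured genes. At least 1 above 2C without overlap lay 6.98% of measured S-phase, 12.5% of G2 and mitosis and 9.38% of respiratory genes, against 10.7%. At least 1 below lay 9.30%, 10.4% and 7.81%, against 12.9%. In DNA replication, the flap endonuclease gene Fen1 was at 7.98 and 8.06 FPKM in 2C and 1.21 and 0.745 FPKM in CX22 (log2 -2.20, SE 0.48, limma adjusted p = 0.101), and the polymerase gene Pole was at 5.27 and 5.33 FPKM in 2C and 0.932 and 0.151 FPKM in CX22 (adjusted p = 0.143). The helicase gene Mcm5 was on the other side, at 24.3 and 16 FPKM in CX22 against 5.19 and 6.04 FPKM in 2C (adjusted p = 0.147). Aurkc, a kinase of the chromosomal passenger complex, was at 0.867 and 1.01 FPKM in 2C and 12.1 and 7.39 FPKM in CX22 (adjusted p = 0.112), whereas Cdca8, of the same complex, was at 147 and 144 FPKM in 2C and 54.4 and 70.3 FPKM in CX22 (adjusted p = 0.146). Among complex I genes, Ndufv2 was at 7.02 and 7.33 FPKM in 2C and 55.6 and 26.7 FPKM in CX22 (adjusted p = 0.141). The complex III gene Uqcrb was higher in both CX22 libraries (81.5 and 75.5 FPKM against 32.3 and 32.4 FPKM), and Uqcrq, of the same complex, was lower (41.0 FPKM in both against 78.3 and 73.7 FPKM), again without a call.

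By chromosome, the median difference over tested genes ran from -0.17 to -0.02 on the log2 scale, and the share of tested genes called lower from 1.54% to 5.47%.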
